A study of Homo sapiens with 16 samples.

Results

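Leukocyte immunoglobulin-like receptors (LILRs) and their relative LAIR1 are surface receptors of myeloid cells, encoded side by side on the long arm of chromosome 19. The set described here is 9 of the 60603 genes in the deposited table, taken by symbol as a receptor family: LILRA1, LILRA2, LILRA5, LILRA6, LILRB1, LILRB2, LILRB3, LILRB4 and LAIR1. The family was chosen by measured values in part: the higher count of LILRB3 with Corin than with DMSO in U-937 cells was already known. Values of every member in that comparison are therefore a description without a test. A filter on low counts kept 6 of the 9 members in SKNO-1 (LILRA1, LILRA2, LILRA5, LILRB1, LILRB2 and LAIR1) and all 9 in U-937. LILRA1, LILRA5, LILRB1 and LILRB2 in SKNO-1, and LILRA5, LILRA6, LILRB3 and LILRB4 in U-937, passed that filter through their treated libraries. Counts over the members that passed are therefore a description of these genes. Rises of these members over DMSO in the line named are given without a p.

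LILRA proteins have short tails and pass activating signals through the adaptor FcR gamma (FCER1G), whereas LILRB proteins carry inhibitory motifs in their tails that recruit the phosphatases SHP-1 (PTPN6) and SHP-2 (PTPN11). Their known ligands include MHC class I molecules for LILRB1, LILRB2 and LILRA1. LAIR1 is an inhibitory receptor for collagen. In blood these genes are expressed mainly on monocytes, macrophages, dendritic cells and neutrophils, and LILRB4 in particular is known as a marker of monocytic leukaemia.

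SKNO-1 and U-937 are established human acute myeloid leukaemia lines. SKNO-1 carries the RUNX1-RUNX1T1 fusion and was grown with GM-CSF at 10 ng/mL, which the U-937 medium did not contain, so line and medium cannot be told apart. Cells of each line were kept for 24 h with the solvent DMSO, with all-trans retinoic acid (ATRA, the agonist of retinoic acid receptors) at 0.1 µM, with Corin (an inhibitor of the LSD1 and HDAC activities of the CoREST complex) at 0.1 µM, or with both agents at 0.1 µM each, and 2 libraries were made per group. Nothing in the labels says that the 2 libraries of a group came from separate cultures, so p-values measure the spread between these libraries, which may be technical.

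Levels are CPM, counts relative to scaled library totals, and values given as pairs are replicate 1 and replicate 2. Library totals ran from 32.8 to 37.8 M estimated counts in SKNO-1 and from 28.4 to 37.6 M in U-937. RUNX1T1 was at 95.4 CPM or more in every SKNO-1 library, and HOXA9 and HOXA10 were at 0 there. Among markers of other blood cells, CD3E, CD3G, MS4A1, NCR1, GNLY and HBB were at 0 in all 8 SKNO-1 libraries, and CD3D, MS4A1, HBB and HBA1 were at 0 in all 8 U-937 libraries. Other markers were detected. The summed B cell markers ranged from 0.536 to 2.85 CPM in SKNO-1 and from 2.60 to 4.95 CPM in U-937. The summed T cell markers ranged from 0 to 1.08 CPM in SKNO-1 and from 0.151 to 3.11 CPM in U-937. NKG7, a cytotoxic granule gene, made up nearly all of the summed NK cell markers in U-937, which ranged from 67.8 to 135 CPM. In bulk RNA, fewer cells of a kind and less RNA per cell cannot be told apart.

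The 9 members lie within 1 stretch of chromosome 19 on GRCh38 (GENCODE release 44). In order they are LILRB3 at chr19:54216278-54223506, LILRA6 at chr19:54236592-54242791, LILRB2 at chr19:54273812-54281184, LILRA5 at chr19:54307070-54313166 and LAIR1 at chr19:54351384-54370558, all on the minus strand. On the plus strand follow LILRA2 at chr19:54572920-54590287, LILRA1 at chr19:54593582-54602381, LILRB1 at chr19:54617158-54638022 and LILRB4 at chr19:54643889-54670359. Promoters were taken from RefSeq (GRCh38.p14), which gave 15 promoters for 8 of the 9 members; LILRA6 had no entry. The promoter of LILRA1 starting at 54593632 matched that of LILRB1 starting at 54630484 in 94.4% of aligned columns over the 250 bases before the start. LILRB2 matched LILRB1 there in 90.5% and LILRA1 in 90.4% of columns, and LILRA5 matched LILRB1 in 65.8%. The promoter of LILRB3 was nearer to those of LILRB4 (72.1%) and LILRA2 (71.1%).

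The upstream stretches printed next, cut so that they hold no annotated exon, are shown because 3 of them are nearly the same sequence in genes that differed in level and response (LILRA1, LILRB1 and LILRB2), 1 belongs to the member with the highest level after both agents (LILRA5), and 1 represents the other promoter type (LILRB3). Each runs 5′ to 3′ on the strand of its gene, and capitals mark GGAAGT, or in LILRB3 the reverse complement of AGGAAG, both of which hold the core letters recognised by ETS factors such as PU.1.
LILRA5, chr19:54313167-54313416, minus strand: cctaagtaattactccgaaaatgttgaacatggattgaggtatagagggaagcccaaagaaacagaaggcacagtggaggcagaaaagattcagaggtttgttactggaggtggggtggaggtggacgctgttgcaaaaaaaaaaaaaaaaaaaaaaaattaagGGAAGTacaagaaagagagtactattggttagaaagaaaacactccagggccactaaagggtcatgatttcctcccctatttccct
LILRA1, chr19:54593382-54593581, plus strand: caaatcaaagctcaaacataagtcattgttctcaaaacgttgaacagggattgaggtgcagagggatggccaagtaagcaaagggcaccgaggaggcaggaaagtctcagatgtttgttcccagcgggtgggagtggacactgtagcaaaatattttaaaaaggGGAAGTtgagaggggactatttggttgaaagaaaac
LILRB1, chr19:54630234-54630409, plus strand: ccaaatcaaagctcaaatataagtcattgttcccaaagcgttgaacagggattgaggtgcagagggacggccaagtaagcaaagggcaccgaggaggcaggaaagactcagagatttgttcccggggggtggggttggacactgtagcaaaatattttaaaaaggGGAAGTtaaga
LILRB2, chr19:54281185-54281360, minus strand: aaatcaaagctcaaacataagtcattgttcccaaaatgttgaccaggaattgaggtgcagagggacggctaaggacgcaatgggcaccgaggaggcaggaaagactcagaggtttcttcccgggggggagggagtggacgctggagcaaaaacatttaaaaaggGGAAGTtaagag
LILRB3, chr19:54223088-54223257, minus strand: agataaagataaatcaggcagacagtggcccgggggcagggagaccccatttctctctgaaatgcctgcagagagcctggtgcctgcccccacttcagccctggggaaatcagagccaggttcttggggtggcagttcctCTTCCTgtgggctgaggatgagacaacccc
The capitals begin 86 bases before the start in LILRA5, LILRA1 and LILRB2 and 85 bases before it in LILRB1, so these 4 promoters share the letters at nearly the same distance. On either strand GGAAGT occurred in 19.5% of 35116 RefSeq promoters (the 250 bases before each start) and AGGAAG, which can overlap it, in 28.7%. The longer PU.1 letters GAGGAAGT (2.17% of promoters), the single retinoid receptor element AGGTCA (12.1%) and the retinoic acid element DR5, which joins a pair of them with 5 bases between (0.00285%), were found in 0 of the 15 member promoters. TTGCNNAA, a C/EBP form (9.05%), occurred in LILRA5 beginning 119 bases before the start, and TGACTCA, an AP-1 form (4.2%), in the LILRB1 promoter starting at 54617129. A match is a description of the letters, and no match says only that they are not in these windows.

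With DMSO, the family looked different in the 2 lines: SKNO-1 expressed LAIR1 and very little LILR RNA, while U-937 expressed LAIR1 and LILRA2. Across genes, levels were compared per length in the authors' TPM. In U-937, LAIR1 stood at 56.5 and 52.4 TPM and LILRA2 at 39.2 and 47.9 TPM. The next were LILRA1 at 2.07 and 2.11, LILRB2 at 1.51 and 2.50 and LILRB1 at 1.09 and 1.11 TPM, of which LILRA1 and LILRB2 overlapped. LILRA5, LILRA6, LILRB3 and LILRB4 were each at 0.400 TPM or less. In SKNO-1 LAIR1 stood at 97.9 and 116 TPM, LILRA2 at 0.900 and 1.29 TPM, and the other 7 members at 0.130 TPM or less.

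The difference in DMSO level between the lines was tested in a model of all 16 libraries. Of the 9 members 7 were higher and 1 lower in U-937, where 64.8% of all 19872 genes tested were called (31.7% higher and 33.1% lower). The members' median log2 difference, U-937 minus SKNO-1, was 4.33 (4.04 with members at 0 in a group set to their bound) against -0.015 for all genes tested. LILRA2, an activating receptor that senses cleaved immunoglobulin, was at 49.5 and 56.2 CPM in U-937 and at 1.35 and 1.30 CPM in SKNO-1, a log2 difference of 5.32 ± 0.14 (SE, n = 2 per group, edgeR adjusted p = 1.52e-16). LILRB2, an inhibitory receptor for MHC class I, held 104.55 and 104.46 estimated counts in U-937 and 0 in both SKNO-1 libraries, so it was at least 75.4-fold higher. LAIR1 went the other way, at 86.6 and 83.6 CPM in U-937 and 240 and 209 CPM in SKNO-1 (log2 difference -1.40 ± 0.09, adjusted p = 4.40e-11). LILRB3 was at 1 and 0 counts in U-937 and 0 and 2 counts in SKNO-1, so no fold is given.

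**Figure D1:**
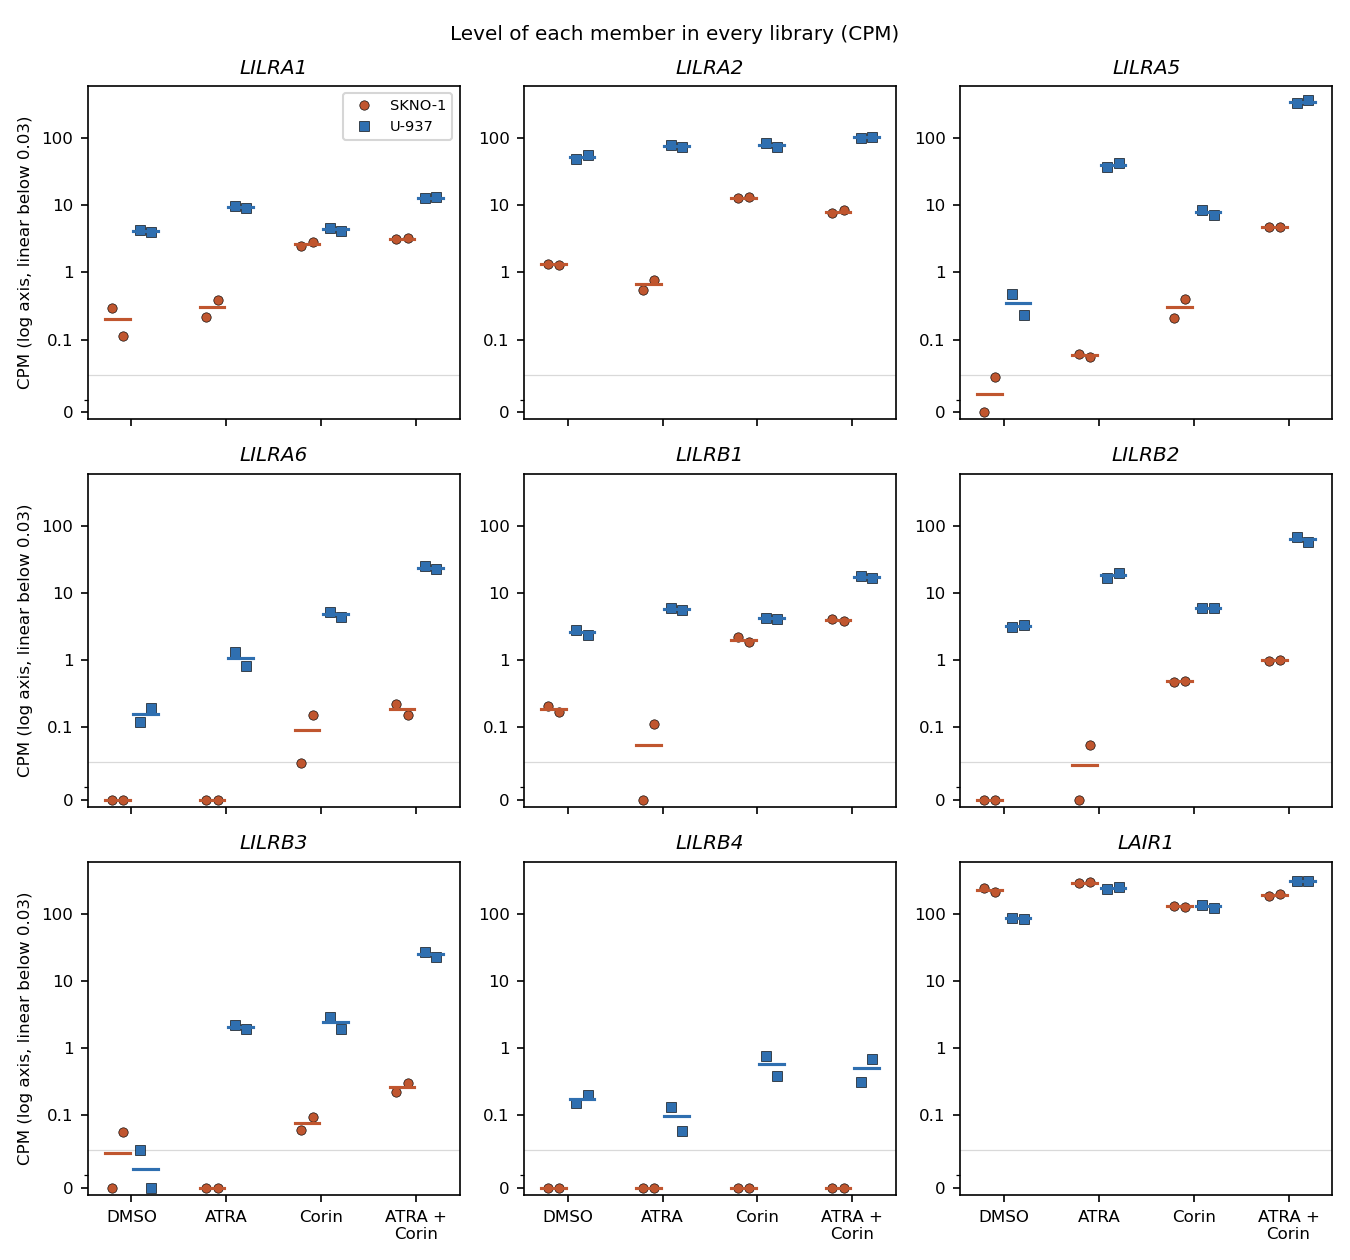
Level of each of the 9 members in every library, in CPM on a log axis that is linear below 0.03, for SKNO-1 (circles) and U-937 (squares) by treatment; points are single libraries and bars are means of 2. In U-937 LILRA5 climbs from 0.484 and 0.229 CPM with DMSO to 330 and 369 CPM with both agents, LILRB4 stays below 1 CPM, and in SKNO-1 LAIR1 is the one member above 100 CPM.

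In U-937 cells ATRA raised 8 of the 9 members, LILRB3 and all 4 activating receptors among them, where 41.8% of all 17717 genes tested were called (21.7% rose and 20.1% fell). The members' median log2 fold change was 1.5 and that of all genes tested 0.018. The 3 comparisons with DMSO share the same 2 DMSO libraries.

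LILRA5, an activating receptor of monocytes and neutrophils, showed the widest range. Its CPM was 0.484 and 0.229 with DMSO (16 and 7 counts), 37.7 and 43.1 with ATRA, 8.62 and 7.29 with Corin and 330 and 369 with both agents. No 2 of these groups overlapped, and every treated library lay above both DMSO libraries. ATRA raised it by 6.79 ± 0.20 on the log2 scale (SE, n = 2 per group) and both agents by 9.91 ± 0.19, which is 962-fold. Against ATRA alone the addition of Corin raised it by a further 3.12 ± 0.12 (8.71-fold, adjusted p = 7.66e-16), and against Corin alone the addition of ATRA raised it by 5.46 ± 0.14 (43.9-fold, adjusted p = 2.17e-19).

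LILRA6, an activating receptor whose ectodomain closely resembles that of LILRB3, held 4 and 6 counts with DMSO (0.121 and 0.197 CPM). It stood at 1.31 and 0.821 CPM with ATRA, 5.26 and 4.37 CPM with Corin and 25.2 and 22.6 CPM with both agents, again without overlap between groups. Unlike LILRA5, it had a higher mean with Corin (4.81 CPM) than with ATRA (1.06 CPM). Its fitted log2 difference from DMSO was 2.74 ± 0.40 with ATRA and 7.22 ± 0.29 (149-fold) with both agents. Its rise when Corin was added to ATRA was 4.48 ± 0.21 (22.4-fold, adjusted p = 2.97e-14).

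The other 2 activating receptors moved less. LILRA2 was at 49.5 and 56.2 CPM with DMSO, 78.6 and 74.8 with ATRA, 86.2 and 75.0 with Corin and 102 and 103 with both, so the ATRA and Corin groups overlapped. Its log2 fold changes were 0.54 ± 0.10 with ATRA (adjusted p = 0.000155) and 0.97 ± 0.10 with both agents (adjusted p = 1.38e-08). LILRA1, which binds MHC class I, was at 4.29 and 4.06 CPM with DMSO and at 4.62 and 4.18 CPM with Corin, which overlap, against 9.81 and 9.12 CPM with ATRA and 12.8 and 13.2 CPM with both. It rose by 1.18 ± 0.16 with ATRA (adjusted p = 2.72e-06) and by 1.64 ± 0.16 with both agents (adjusted p = 3.92e-09).

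Of the 4 LILRB members, LILRB2 had the highest TPM in every U-937 library. Its CPM was 3.17 and 3.41 with DMSO, 16.7 and 20.1 with ATRA, 6.03 and 6.06 with Corin and 69.6 and 58.4 with both agents. The 4 groups were separate. ATRA raised it by 2.48 ± 0.15 (5.58-fold, adjusted p = 1.99e-12) and both agents raised it by 4.29 ± 0.15 (19.5-fold, adjusted p = 1.83e-17).

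LILRB1, the broadly expressed inhibitory receptor for MHC class I, was at 2.81 and 2.39 CPM with DMSO, 5.97 and 5.54 with ATRA, 4.28 and 4.15 with Corin and 17.8 and 16.7 with both. Its groups did not overlap, and its rise was 1.14 ± 0.18 with ATRA (adjusted p = 1.42e-05) and 2.73 ± 0.17 with both agents (6.64-fold, adjusted p = 1.60e-12). The LILRA1, LILRB1 and LILRB2 promoters printed earlier belong to genes whose log2 fold changes with both agents were 1.64, 2.73 and 4.29. At least 90.4% of the aligned columns of these promoters were identical. These genes have other listed starts as well, and which start was used was not tested.

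LILRB3, an inhibitory receptor of monocytes and granulocytes, was almost absent with DMSO, at 1 and 0 counts. It held 81.85 and 66.27 counts with ATRA (2.19 and 1.94 CPM), 114.39 and 61.80 counts with Corin (2.92 and 1.95 CPM) and 946.40 and 685.49 counts with both agents (26.9 and 22.6 CPM). The ATRA and Corin groups overlapped, while both agents together exceeded every other library. Because DMSO held 1 count over the group, the ratio to DMSO is a counting ratio: 131 with ATRA (95% interval 23.2 to 5227) and 1585 with both (284 to 62640). These intervals cover counting error only. Both ratios share the DMSO libraries with the comparison in which LILRB3 was first noticed, so they are given without a p. Free of the DMSO libraries, the addition of Corin to ATRA raised LILRB3 by 3.59 ± 0.20 (12.1-fold, adjusted p = 6.59e-13) and the addition of ATRA to Corin by 3.33 ± 0.20 (10.1-fold, adjusted p = 8.44e-13).

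LILRB4, an inhibitory receptor that binds apolipoprotein E, stayed low. It held 5 and 6 counts with DMSO, 5 and 2 with ATRA, 30 and 12 with Corin and 11.01 and 21 with both agents, none above 0.770 CPM. ATRA gave a log2 difference of -0.81 ± 0.81 that did not pass the test (adjusted p = 0.442). Both agents against DMSO gave 1.51 ± 0.64, without a p because LILRB4 passed the filter through its Corin and both-agents libraries. The edgeR call was lost without replicate 1 of DMSO (log2 difference 1.32), replicate 2 of DMSO (1.69) or replicate 2 of both agents (0.84). It was also lost with DESeq2, unscaled library totals or a replicate block. Both agents against ATRA gave 2.31 ± 0.69, likewise without a p. That call was lost without replicate 2 of ATRA (1.88) or of both agents (1.66) and with DESeq2.

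LAIR1 was the most abundant member by CPM in U-937 with DMSO, ATRA and Corin. It stood at 86.6 and 83.6 CPM with DMSO, 235 and 247 with ATRA, 136 and 123 with Corin and 309 and 306 with both agents. All treated libraries exceeded the DMSO libraries. ATRA raised it by 1.5 ± 0.10 (2.83-fold, adjusted p = 1.49e-11) and both agents by 1.86 ± 0.10 (3.63-fold, adjusted p = 6.58e-14).

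Corin against DMSO in U-937 is the comparison in which LILRB3 was first noticed. There 7 of the 9 members were called higher and 0 lower, beside 12.9% of all genes tested (8.55% higher and 4.4% lower), and nothing is read from this count. The fitted log2 fold changes of the members ran from 0.08 in LILRA1 to 6.99 in LILRB3. LILRA6 was 30.1-fold and LILRA5 21.9-fold above DMSO, against 1.84-fold for LILRB2, 1.62-fold for LILRB1 and 1.53-fold for both LILRA2 and LAIR1.

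Both agents together against DMSO raised all 9 members in U-937 by edgeR's test (LILRA5, LILRA6, LILRB3 and LILRB4 with the limits given earlier). There 65.3% of all genes tested were called (33.1% rose and 32.2% fell). The median log2 fold change was 2.73 for the members and 0.034 for all genes. Adding Corin to ATRA, a comparison that uses neither the DMSO nor the Corin libraries, raised 9 of 9 members (47.4% of all genes were called, 22.5% higher and 24.8% lower), with medians of 1.81 and 0.011. The smallest of these rises were 0.36 ± 0.10 in LAIR1, 0.43 ± 0.10 in LILRA2 and 0.47 ± 0.15 in LILRA1. The LILRA1 call (adjusted p = 0.0135) was lost without replicate 1 or 2 of ATRA (0.0574 and 0.127) or replicate 2 of both agents (0.0655), and that of LAIR1 (adjusted p = 0.00327) without replicate 1 of ATRA (0.0766). Adding ATRA to Corin raised 8 of 9 (60.5% of all genes were called, 29.9% higher and 30.6% lower), with medians of 2.03 and 0.020, and LILRB4 gave -0.22 ± 0.53 (adjusted p = 0.734). The rise of LILRA2 in that comparison, 0.35 ± 0.10 (adjusted p = 0.00436), was lost without replicate 2 of Corin (0.0784).

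**Figure D2:**
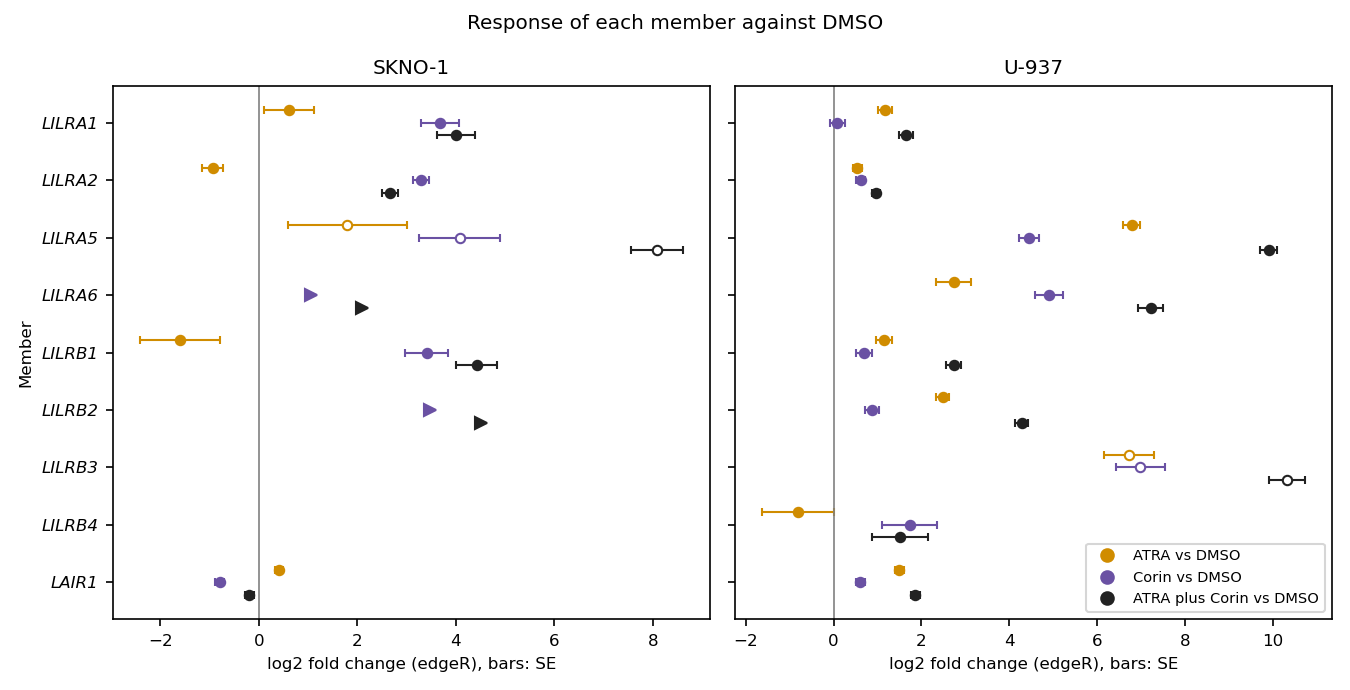
Log2 fold change of each member against DMSO (edgeR, bars ± SE) with ATRA, Corin and both agents in SKNO-1 and U-937. Open circles mark members with 1 to 3 counts in a group, triangles are lower bounds where DMSO held 0 counts, and members not tested or without a fold are left blank. In U-937 both agents give 9.91 in LILRA5 and 0.97 in LILRA2, and in SKNO-1 LAIR1 alone lies left of 0 with Corin.

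Departure from additivity, taken as the log2 change with the combination less the changes with ATRA and with Corin added up, was called in 4 of the 9 members in U-937, where 23.4% of all genes were called (8.09% higher and 15.3% lower). Both inhibitory receptors for MHC class I exceeded the sum, LILRB1 by 0.89 ± 0.24 (adjusted p = 0.00816) and LILRB2 by 0.93 ± 0.20 (adjusted p = 0.00118). LILRA5 fell short of it by a departure of -1.33 ± 0.31, which contains its DMSO libraries and is given without a p. LILRB3 is among the 4, but its departure, -3.40 ± 0.90, contains its own difference between Corin and DMSO and rests on 1 DMSO count, so it is a description. Without replicate 2 of DMSO the departure of LILRA5 was -0.92, without replicate 1 of DMSO that of LILRB1 was 0.77, and neither passed the test. The departure of LILRB2 passed the test in each alternative run.

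In SKNO-1 cells ATRA raised 1 and lowered 1 of the 6 members tested, beside 6.76% of all 17479 genes tested that were called (2.96% higher and 3.79% lower). LAIR1 went from 240 and 209 CPM with DMSO to 284 and 296 CPM with ATRA, a rise of 0.41 ± 0.08 (adjusted p = 0.0236). LILRA2 went from 1.35 and 1.30 CPM to 0.554 and 0.777 CPM, a change of -0.94 ± 0.21 (adjusted p = 0.0359). Neither group pair overlapped, but both calls were lost without replicate 1 or replicate 2 of ATRA (LAIR1 adjusted p = 0.156 and 0.236, LILRA2 0.201 and 0.0559) and in a fit of these 4 libraries alone (0.207 and 0.271). The authors' deposited table gives the adjusted p of LAIR1 here as 0.162 and that of LILRA2 as 0.958.

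Corin raised 5 of the 6 members tested in SKNO-1 and lowered 1, where 37.9% of all genes were called (20.5% rose and 17.3% fell). The members' median log2 fold change was 3.55 (3.44 with LILRB2 at its bound) against 0.0013 for all genes. LILRA2 went from 1.35 and 1.30 CPM to 12.8 and 13.1 CPM, a rise of 3.29 ± 0.17 (9.78-fold, adjusted p = 1.14e-05). LILRA1 went from 10 and 4 counts (0.3 and 0.113 CPM) to 2.46 and 2.87 CPM, a rise of 3.68 ± 0.39. None of these groups overlapped.

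The same comparison moved the inhibitory receptors from a very low base. LILRB1 held 7 and 6 counts with DMSO (0.210 and 0.169 CPM) and stood at 2.19 and 1.88 CPM with Corin, a rise of 3.41 ± 0.44 (10.6-fold). LILRB2 held 0 counts in both DMSO libraries and 16.24 and 16.21 counts with Corin, at least 11.2-fold higher. LAIR1 was the exception: it fell to 132 and 126 CPM, a change of -0.80 ± 0.08 (adjusted p = 0.000269).

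Both agents in SKNO-1 raised 5 of the 6 members tested, where 46.7% of all genes were called (24.7% rose and 22% fell), with a median log2 fold change of 4.21 for the members and 0.055 for all genes. LILRA5 held 0 and 1 counts with DMSO, 2 and 2 with ATRA, 7 and 13 with Corin and 153 and 156 with both agents (4.84 and 4.78 CPM). Its counting ratio to DMSO with both agents was 331 (95% interval 58.9 to 13109), and both agents exceeded Corin alone by 4.01 ± 0.33 (16.1-fold). LILRA5 passed the filter in SKNO-1 through its both-agents libraries, so this rise over Corin is also given without a p. LILRB2 reached 31.46 and 32.80 counts, at least 22.8-fold above DMSO. LILRA5, LILRB2, LILRB1 and LILRA1 passed the filter through treated libraries, so no p against DMSO is given for them. LILRB1 stood at 4.11 and 3.89 CPM, LILRA1 at 3.16 and 3.25 CPM and LILRA2 at 7.71 and 8.48 CPM, rises of 4.43 ± 0.42, 4.0 ± 0.39 and 2.66 ± 0.17.

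LAIR1 with both agents, at 185 and 195 CPM, lay below both DMSO libraries by -0.19 ± 0.08, which missed the threshold (adjusted p = 0.0915). That difference passed it without replicate 2 of DMSO (-0.32, adjusted p = 5.61e-06), with DESeq2 (0.0411), without the filter on low counts (0.0258) and with the GC trend removed (0.0132). It missed the threshold in the other alternatives run, and the authors' deposited table gives a log2 fold change of -0.26 with an adjusted p of 0.213. The DMSO libraries of SKNO-1 were farther apart than other pairs: the SD of the log2 difference between replicates over 9354 genes was 0.361 there and at most 0.132 in the other SKNO-1 groups.

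LILRA6 and LILRB3 were too low for the filter in SKNO-1. LILRA6 held 0 counts with DMSO and with ATRA, 1 and 5 with Corin and 7 and 5 with both agents, which is at least 4.28-fold above DMSO. LILRB3 held 0 and 2 counts with DMSO, 0 with ATRA, 2.03 and 3 with Corin and 7 and 10 with both, a counting ratio of 9.10 (95% interval 2.16 to 81.2). LILRB4 held 0 counts in all 8 SKNO-1 libraries.

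Comparisons between treated groups in SKNO-1 divided the effect between the agents. Adding Corin to ATRA raised 5 of the 6 members tested and lowered LAIR1 (-0.60 ± 0.08, adjusted p = 0.000804), where 44.8% of all genes were called (23% rose and 21.8% fell). Adding ATRA to Corin raised LILRA5 (with the limit given earlier) and LAIR1 and lowered LILRA2. There 10.4% of genes were called (4.82% rose and 5.6% fell). LAIR1 rose by 0.61 ± 0.08 (adjusted p = 0.00386), a call lost without replicate 1 or 2 of Corin (0.0512 and 0.0627) or replicate 2 of both agents (0.0595). The change of LILRA2, -0.63 ± 0.14 (adjusted p = 0.0321), was lost without any 1 of the 4 libraries compared (adjusted p from 0.176 to 0.222) and with the replicate block (0.0622). LILRB1 was 2.03-fold and LILRB2 2.10-fold above Corin alone without passing the test (adjusted p = 0.0724 and 0.144), and in a fit of these 4 libraries alone both passed it (9.26e-05 and 0.0155). Departure from additivity was called in 0 of the 6 members by edgeR, beside 0.463% of all genes, and in 0 by DESeq2. At an unadjusted p under 0.05 there was 1, LILRB1, at 2.62 ± 0.85 (adjusted p = 0.254). Without replicate 2 of DMSO, LILRB1 (2.84, adjusted p = 0.0214) and LAIR1 (0.37, adjusted p = 6.38e-05) were called.

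The effect of ATRA differed between the lines in 4 of the 9 members, all with the higher log2 value in U-937, where 19.4% of all genes tested were called (10.6% with a higher and 8.81% with a lower effect in U-937). These were LAIR1 (difference 1.13 ± 0.12, adjusted p = 1.70e-06), LILRA2 (1.51 ± 0.24, adjusted p = 0.000141), LILRB1 (2.78 ± 0.71, adjusted p = 0.00703) and LILRB3 (2 counts over the SKNO-1 DMSO group and 0 with ATRA). LILRA2 rose in U-937 by 0.54 and fell in SKNO-1 by 0.94, and LILRB1 rose in U-937 by 1.14 while its -1.60 in SKNO-1 did not pass the test (adjusted p = 0.340). Without replicate 1 of SKNO-1 ATRA the difference in LILRB1 was 1.84 and its call was lost, as was that of LILRB3 without replicate 2 of SKNO-1 DMSO. LILRB3 is given without a p, since its U-937 DMSO libraries are those of the comparison in which it was first noticed. LILRA5, which rose 110-fold in U-937 and went from 1 to 4 counts over the group in SKNO-1, gave a difference of 5.02 ± 2.15 that did not pass the test (adjusted p = 0.137; 0.0183 with DESeq2).

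The effect of both agents differed between the lines in 6 of the 9 members, where 40.6% of all genes were called. The effect on the log2 scale was higher in U-937 in 2 of them (17.9% of all genes) and lower there in 4 (22.7%). LAIR1 rose in U-937 while its 1.14-fold lower level in SKNO-1 missed the threshold, a difference of 2.09 ± 0.12 (adjusted p = 1.38e-10). LILRB3 gave a difference of 7.28 ± 1.89 (a call lost without replicate 2 of SKNO-1 DMSO), resting on 1 and 2 counts over the DMSO groups. LILRA1, LILRA2 and LILRB1, which started higher in U-937, had smaller fold changes there, with differences of -2.31 ± 0.39 (adjusted p = 7.57e-05), -1.65 ± 0.18 (adjusted p = 5.86e-07) and -1.65 ± 0.43 (adjusted p = 0.00375). LILRB2 was called in the same direction (adjusted p = 0.0260), a call lost without replicate 1 or 2 of SKNO-1 DMSO (0.120 and 0.144) and with DESeq2 (0.0750). With both agents every U-937 library lay above every SKNO-1 library in all 9 members, with LILRB4 at 0 counts in SKNO-1. The share of all genes separated in this way was not computed, so this is a description.

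The make-up of LILR RNA changed with treatment. Summed over the 8 LILR members, CPM in U-937 was 60.5 and 66.6 with DMSO, 152 and 155 with ATRA, 119 and 103 with Corin and 584 and 607 with both agents. The sum in SKNO-1 was 1.86 and 1.66, 0.831 and 1.39, 18.2 and 19, and 21.2 and 21.9 CPM in the same order. The log2 fold change of the sum with both agents was 3.23 ± 0.11 in U-937 and 3.66 ± 0.19 in SKNO-1, and this sum does not depend on how reads are divided among the 8 genes.

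Per length, LILRA2 held 88.2% and 88.6% of the LILR TPM in U-937 with DMSO, 55.9% and 51.7% with ATRA, 77.5% and 78.8% with Corin and 17.2% and 16.9% with both agents. LILRA5 held 0.901% and 0.389%, 30.1% and 33.0%, 8.87% and 8.30%, and 66.2% and 69.8%, so with both agents it took the place of LILRA2 as the leading LILR transcript. In TPM LILRA5 then stood at 234 and 229, above LAIR1 at 149 and 133, LILRA2 at 60.9 and 55.5, and LILRB2 at 26.7 and 18.6. LILRB3 (10.5 and 7.37 TPM) and LILRA6 (9.76 and 8.06 TPM) overlapped. Activating receptors held between 87.6% and 93.9% of the LILR TPM in every U-937 library. In SKNO-1 LILRA2 stayed first with both agents, at 44% and 46.4%, followed by LILRA5 at 27.7% and 28.5%.

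**Figure D3:**
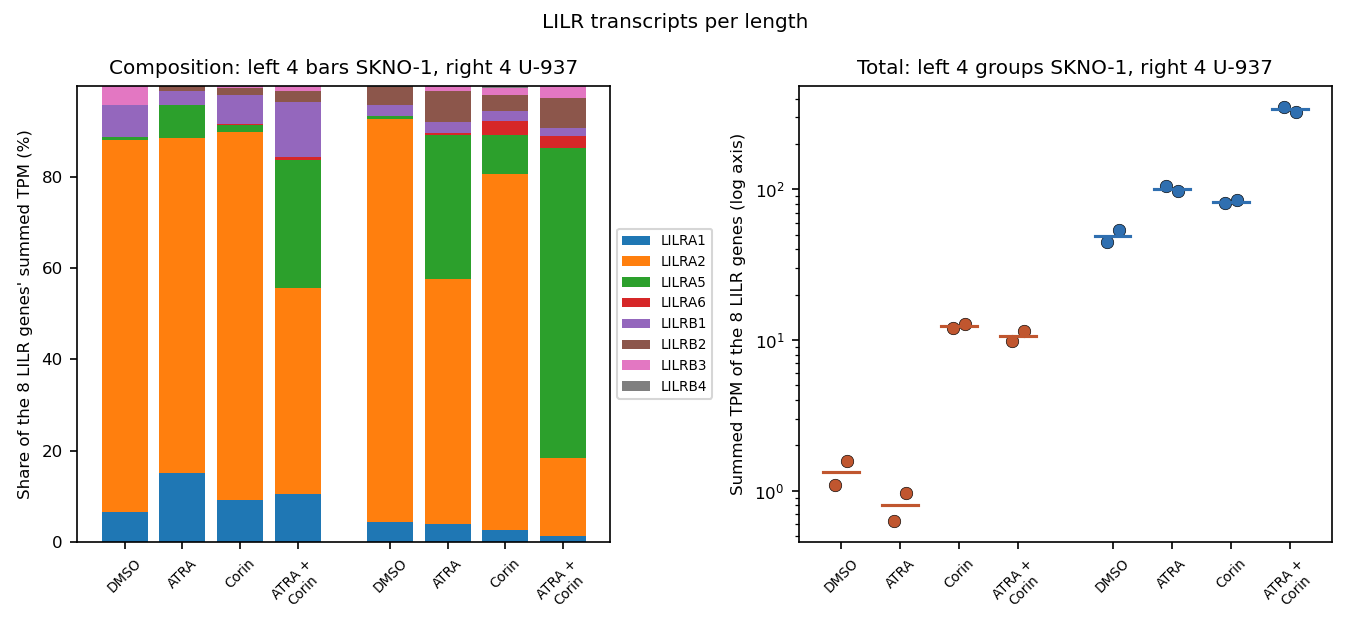
Left, mean share of each LILR gene in the summed TPM of the 8 LILR members, by line and treatment; right, that sum in each library on a log axis, with bars at the mean of 2. LILRA2 holds 88.4% of the U-937 sum with DMSO and 17.1% with both agents, when LILRA5 holds 68.0%.

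LILR genes resemble each other, so single values are estimates. Of distinct 100-base windows in the GENCODE transcripts, 0% of LILRA1 and LILRA5 were found in another gene, by exact match over that length. Their estimated counts were still not whole in 6 of the 16 libraries for LILRA1 and in 1 of the 15 libraries above 0 for LILRA5. LILRA5 shares 85 exon bases with ENSG00000275210, and part of LILRB1 (4.14% of windows) lies over the antisense gene LILRB1-AS1, from which it cannot be told apart because the use of strand is not stated. The shared part was 12.0% in LILRB3 and 8.74% in LILRA6, mostly with each other, 7.30% in LILRB1 and 3.71% in LILRB2. In LILRA2 (13.3%) it was shared with the overlapping gene ENSG00000269271, in LILRB4 (10.7%) with VN1R105P and in LAIR1 (2.03%) with LAIR2. Taken as 1 feature, LILRA6 plus LILRB3 rose in U-937 by 4.16 ± 0.32 with ATRA and by 8.11 ± 0.24 with both agents. The effective length of LILRB3 ranged from 424 to 2748 bases between libraries, so TPM made from its few counts varies: 2 counts in replicate 2 of SKNO-1 DMSO gave 0.130 TPM.

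**Figure D4:**
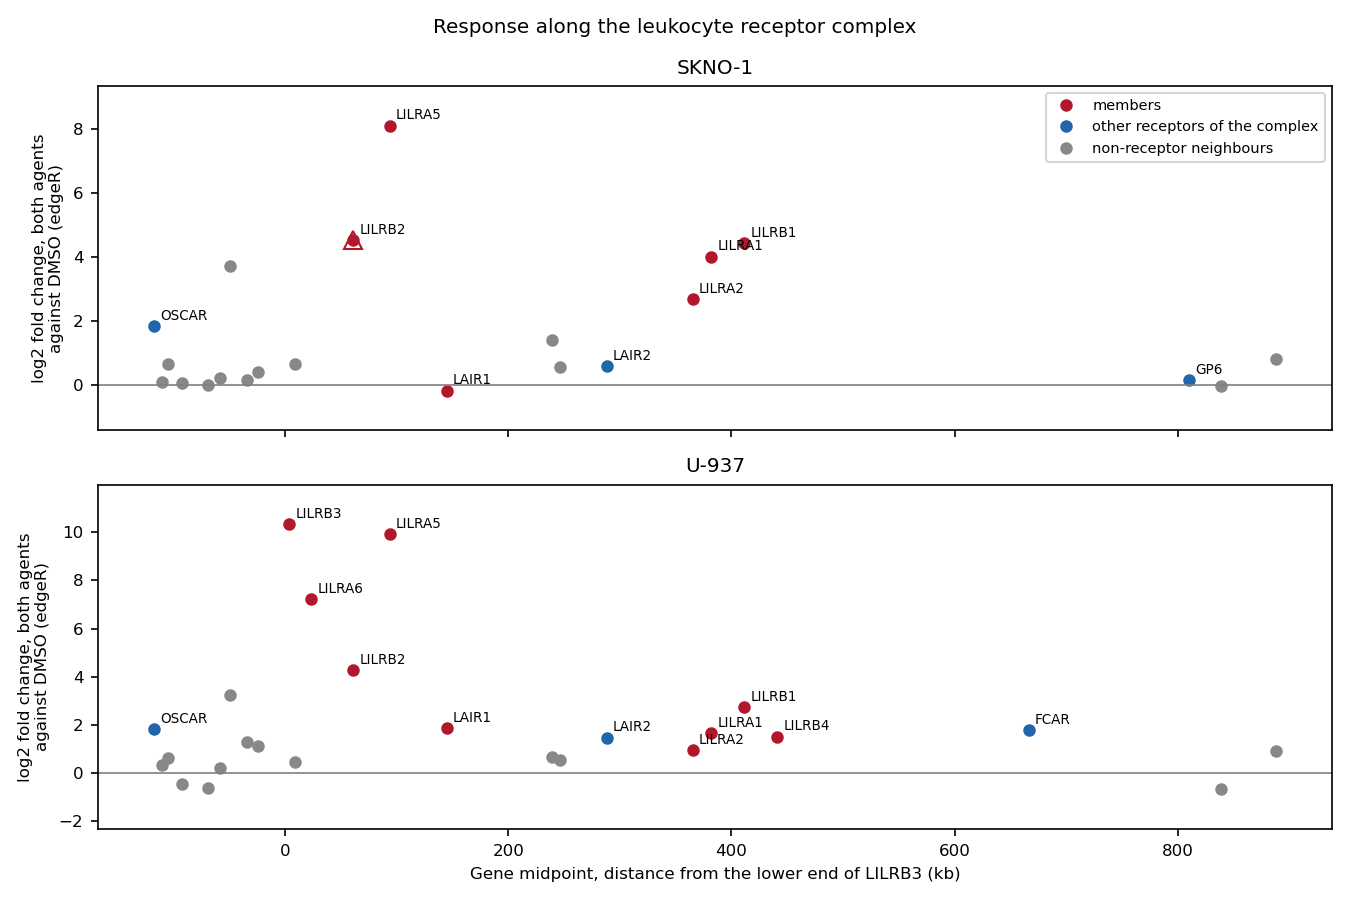
Log2 fold change with both agents against DMSO for tested genes of the leukocyte receptor complex by distance of the gene's midpoint from the lower end of LILRB3, in kb; red members, blue other receptors, grey non-receptor neighbours, with an open triangle for a lower bound. In U-937 the 4 LILR genes at the left lie between 4.29 (LILRB2) and 10.3 (LILRB3), and the 4 at the right between 0.97 (LILRA2) and 2.73 (LILRB1).

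Along the chromosome the LILR genes fall into 2 groups on either side of LAIR1, a division chosen after the values were seen. In U-937 with both agents, LILRB3, LILRA6, LILRB2 and LILRA5 on the left had log2 fold changes of 10.3, 7.22, 4.29 and 9.91. On the right LILRA2, LILRA1, LILRB1 and LILRB4 had 0.97, 1.64, 2.73 and 1.51. In SKNO-1 the left pair measured was LILRA5 at 8.09 and LILRB2 at a bound of 22.8-fold, and LILRA2, LILRA1 and LILRB1 on the right gave 2.66, 4.0 and 4.43.

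Of 15 other receptor genes of the complex, 3 passed the filter in each line. In U-937 all 3 rose with both agents: OSCAR, an activating receptor for collagen, by 1.82 ± 0.15, FCAR, the IgA receptor, by 1.79 ± 0.14 and LAIR2, the secreted relative of LAIR1, by 1.47 ± 0.36. In SKNO-1 OSCAR rose by 1.82 ± 0.23 (adjusted p = 0.000467), while LAIR2 and GP6 gave 0.58 and 0.14 without passing the test, and FCAR held 0 CPM in every library. Among 13 tested non-receptor neighbours, 6 rose and 3 fell in U-937 with both agents and 4 rose and 0 fell in SKNO-1, with median log2 fold changes of 0.56 and 0.38. With both agents 33.1% of all genes tested rose and 32.2% fell in U-937, and 24.7% rose and 22% fell in SKNO-1. MBOAT7 and TSEN34 had the smallest adjusted p of these neighbours in U-937, at 1.27 ± 0.10 and 1.11 ± 0.13 (adjusted p = 1.38e-10 and 9.96e-08), and TMC4 and LENG8 in SKNO-1. LENG8 rose there by 1.38 ± 0.15 (adjusted p = 0.000204). TMC4 had the largest of those rises in SKNO-1 (3.71 ± 0.39). It was at 0.150 and 0.113 CPM with DMSO and 1.99 and 1.41 CPM with both agents. It passed the filter through treated libraries, so no p is given.

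Of 14 adaptors, phosphatases and kinases that work with these receptors, 10 rose and 1 fell with both agents in U-937, and in SKNO-1 6 rose and 3 fell. The shares of all genes tested were 33.1% higher and 32.2% lower in U-937, and 24.7% higher and 22% lower in SKNO-1. FCER1G, the adaptor of LILRA proteins, was at 29.9 and 36.3 CPM with DMSO in U-937 and at 246 and 291 CPM with both agents, a rise of 3.02 ± 0.12 (adjusted p = 2.42e-15). It also exceeded the sum of the single effects there by 0.84 ± 0.16 (adjusted p = 0.000525). In SKNO-1 FCER1G fell with ATRA (-1.09 ± 0.19, adjusted p = 0.0119) and rose with both agents (1.01 ± 0.17, adjusted p = 0.00223). FGR, a Src-family kinase of myeloid cells, rose with both agents in U-937 (4.81 ± 0.11) and in SKNO-1 (4.81 ± 0.41). TYROBP, the adaptor DAP12, rose in U-937 from 3.38 and 3.34 CPM to 59.3 and 65.1 CPM (4.21 ± 0.14, adjusted p = 8.27e-18). LYN, a Src-family kinase, rose by 2.59 ± 0.11 in U-937 and by 0.97 ± 0.09 in SKNO-1. SRC rose in SKNO-1 from 8 and 3 counts to 107 and 122 counts (4.49 ± 0.40). It passed the filter on low counts through treated libraries, so no p is given.

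Of 22 ligand genes 16 were tested in U-937, where 14 rose and 1 fell with both agents, and 10 in SKNO-1, where 6 rose and 1 fell, against the shares of all genes just given. S100A9, a calcium-binding protein of myeloid cells on that list, was at 2.48 and 3.01 CPM in U-937 with DMSO and at 183 and 196 CPM with both agents, a rise of 6.12 ± 0.15 (adjusted p = 5.21e-20). S100A8, its partner protein, went from 14 and 8 counts to 1777 and 1853 counts there (7.33 ± 0.23), without a p because of its low DMSO counts. CD1D, a lipid-presenting molecule, rose by 4.67 ± 0.18 in U-937 and by 2.60 ± 0.19 in SKNO-1, and HLA-B, an MHC class I molecule, by 1.73 ± 0.15 in SKNO-1. HLA-E, a nonclassical MHC class I molecule, rose by 1.87 ± 0.10 in U-937 and by 1.07 ± 0.09 in SKNO-1. BST2, a ligand of LILRA4, rose by 4.74 ± 0.24 in SKNO-1, where LILRA4 itself was at 0.095 CPM or less.

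Levels of several marker genes differed between treatments as well. ITGAM, which encodes CD11b, was at 4.65 and 4.42 CPM in U-937 with DMSO, 96.0 and 105 with ATRA, 55.5 and 50.3 with Corin and 353 and 367 with both agents. In SKNO-1 it was at 0.450 and 0.338, 0.984 and 0.888, 39.0 and 35.7, and 117 and 116 CPM. Of the 7 myeloid markers tested in SKNO-1, 2 rose and 2 fell with ATRA (2.96% and 3.79% of all genes). With Corin 4 rose and 1 fell (20.5% and 17.3%), and with both agents 3 rose and 2 fell (24.7% and 22%). Of 5 tested in U-937, 5 rose and 0 fell with both agents (33.1% and 32.2%). CD2, the one T cell marker that passed the filter in U-937, went from 0.151 and 0.197 CPM with DMSO to 2.22 and 3.11 CPM with both agents, while CD3D, CD3E and CD3G were at 0 in both of those groups. CD14, the monocyte coreceptor, stayed at 0.227 CPM or less in U-937 and at 0.827 CPM or less in SKNO-1. All 7 myeloid markers were detected in both lines, with sums from 2204 to 4238 CPM in SKNO-1 and from 294 to 1058 CPM in U-937, and the part of these markers in the receptor changes was not tested.

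Genes with the pattern most like the summed LILR level were ranked by Pearson's r of log2(CPM + 0.5) over 19863 other genes. Across all 16 libraries they were DPYD (r = 0.997), SLC7A7 (0.993), FUCA1 (0.992), SAT2 (0.991) and SMIM14 (0.991). Within the 8 U-937 libraries they were CCDC69, OAS2, GRAP2, STX12 and SH3TC1 (r from 0.997 to 0.999), and within the 8 SKNO-1 libraries AC005083.1, SYT11, RILPL1, NLRP1 and SNX10 (r from 0.997 to 0.998). These values share library depth and 4 treatment groups, and are a description.

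Between members, r over the 8 U-937 libraries was above 0.6 for every pair of the 7 LILR members other than LILRB4, and LILRB4 correlated with the other 8 members at 0.028 (LILRA1) to 0.698 (LILRA6). In SKNO-1 LAIR1 ran against all 7 LILR members detected there, with r from -0.916 (LILRA2) to -0.251 (LILRA5).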

How the data were processed

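RNA was sequenced from 16 libraries, 2 for each of 4 treatments in 2 lines, and groups were taken from the sample titles. The authors deposited RSEM expected counts and TPM per gene, aligned to hg38, with Trimmomatic, STAR and RSEM named in the submitters' processing notes; versions, the annotation release and the use of strand are not given in the sources used here. Tables of the authors' own comparisons hold deposited log2 fold changes and p-values. Estimated counts were rounded (20.4% of the positive values were not whole), which moved no library total by more than 42.03 counts. The deposited table held 0 spike-in entries.

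Counts were filtered with filterByExpr, scaled with TMM and tested by edgeR's quasi-likelihood F test (edgeR 4.0.16, R 4.3.3), with Benjamini-Hochberg adjustment over all genes tested and a threshold of 0.05. Each line was fitted on its 8 libraries (residual df 4), and comparisons between lines on all 16 (residual df 8). The test was checked on simulated data for ATRA against DMSO with 200 changed genes in each line: of 100 genes changed by 1 on the log2 scale it called 57 in SKNO-1 (17479 genes) and 63 in U-937 (17717 genes), of 100 changed by 2 it called 83 and 85, and 13 and 14 unchanged genes were called. A group with 0 counts was set to a floor of 3 counts over the group for lower bounds, and ratios against 1 to 3 counts carry exact 95% intervals. Total counts of 28.4 to 37.8 M per library put 3 counts over a group at about 0.04 to 0.05 CPM. Shared sequence was counted in 100-base windows of GENCODE 44 transcripts.

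Members and gene lists were chosen with earlier results of these data known. Genes named are the 9 members, 2 to 4 genes with the smallest adjusted p for both agents against DMSO from each fixed list and line, the 5 genes most correlated with the summed LILR level, and markers. Alternatives were DESeq2 1.42.0, unscaled library totals, no filter on low counts, a replicate block, removal of a GC trend, only the 4 libraries compared, merged features, and leaving out each library.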

Additional observations from a re-analysis of the deposited data

Results flagged for a closer look

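The response to ATRA differed between the lines by a test of the difference itself, U-937 minus SKNO-1 on the log2 scale, in LILRA2 (1.51), LILRB1 (2.78) and LAIR1 (1.13), each with the higher value in U-937. LILRA2 had opposite signs in the lines, and the lower LILRB1 in SKNO-1 did not pass its own test. LILRB3 was called as well (edgeR adjusted p = 0.00430), with a group at 0 counts in SKNO-1 that leaves its size without a meaning and with the U-937 DMSO libraries of the comparison in which it was first noticed.

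The response to both agents differed in LILRA1 (-2.31), LILRA2 (-1.65) and LILRB1 (-1.65), which had larger fold changes in SKNO-1, where they started lower, and in LILRB3 (7.28) and LAIR1 (2.09), which had larger ones in U-937. LILRB2 was called in the direction of SKNO-1 (edgeR adjusted p = 0.0260), again with a group at 0 counts.

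With Corin, LAIR1 changed by -0.80 in SKNO-1 while its log2 fold change in U-937 was 0.61. Both Corin libraries lay below both DMSO libraries in SKNO-1 and above them in U-937, and this difference between the lines was not tested.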

How the results depend on the processing

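The 78 calls on members were recomputed in 825 combinations of call and alternative, of which 787 kept direction and side of the threshold, 38 lost the call and 0 changed sign. Of calls lost outside single-library removal, DESeq2 accounted for 3, the replicate block for 3, fits of only the 4 libraries for 2 and unscaled library totals for 1; removing the filter on low counts or the GC trend lost 0.

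Apart from leaving out libraries, the number of called members moved by over 1.5 times in 4 comparisons. For ATRA in SKNO-1 the count of 2 became 1 with the replicate block and 0 with only the 4 libraries compared. For both agents against DMSO in SKNO-1 the count of 5 became 8 without the filter, which adds LILRA6, LILRB3 and a lower LAIR1 (-0.21, adjusted p = 0.0258). For both agents against Corin in SKNO-1 the count of 3 became 5 with only the 4 libraries, and the count of 0 departures from additivity became 1 (LILRB1) without the filter. The cause was not tested.

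Leaving out 1 library at a time gave, in SKNO-1, 0 to 2 members called for ATRA, 6 for Corin, 5 to 7 for both agents, 6 to 7 for both against ATRA, 1 to 2 for both against Corin and 0 to 2 for additivity. In U-937 it gave 8 for ATRA, 6 to 8 for Corin, 8 to 9 for both, 7 to 9 against ATRA, 7 to 8 against Corin and 2 to 4 for additivity. Between the lines it gave 8 for the DMSO level, 3 to 4 for the ATRA response and 4 to 6 for the response to both. The counts that moved by over 1.5 times were ATRA in SKNO-1 (2 to 0 without either ATRA library), both against Corin in SKNO-1 (3 to 1 without either Corin library or replicate 2 of both agents), additivity in SKNO-1 (0 to 2 without replicate 2 of DMSO) and additivity in U-937 (4 to 2 without replicate 2 of DMSO). With 1 library left in a group, that library is assumed to vary like the others.

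Replicate numbers did not pair the libraries: correlations of same-numbered deviations ran from -0.488 to 0.236 in SKNO-1 and from -0.447 to 0.418 in U-937. Unscaled library totals moved the median of all genes from -0.015 to 0.15 for the DMSO level, from -0.11 to -0.26 for the response to both agents between the lines and from 0.020 to -0.11 for both agents against Corin in U-937. Counts of 10 or fewer in both libraries of at least 1 group limit LILRA6, LILRB3 and LILRB4 in U-937 and LILRA1, LILRA5, LILRA6, LILRB1, LILRB2, LILRB3 and LILRB4 in SKNO-1.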
